A study of Mus musculus with 10 samples.

Results

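The genes described here are 38 members of the mTOR pathway, chosen by name from the 13299 genes of the table. The choice was made with earlier results of these data known. They comprise the subunits of mTORC1 and mTORC2, the TSC complex and Rheb, Ragulator, GATOR1, GATOR2 and KICSTOR, the amino acid sensors, the S6 kinases, the 4E-BPs, the AKT kinases and the stress-induced inhibitor Ddit4. All 38 passed the filter on low values, which kept 13236 genes. Whole kidneys of Rragc S74N/+ and Rragc +/+ mice were compared, with 5 samples per genotype. Rragc S74N/+ mice carry, on 1 allele of the endogenous Rragc gene, a knocked-in change that turns serine into asparagine at this position of the GTPase RagC and makes it an activating form, and they carry it in the whole body. Rragc +/+ mice are wild type. Every mouse was 1.5 years old, the strain given for the study is C57BL/6, and the labels name no treatment. The question is whether the transcripts of the pathway downstream and upstream of RagC differ in old kidneys when RagC is in its activating form.

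mTORC1 is a kinase complex that drives protein synthesis and growth and restrains autophagy. Amino acids recruit it to the lysosome through the Rag GTPases, which Ragulator anchors there, GATOR1 switches off and GATOR2 protects, while growth factors act through AKT, the TSC complex and Rheb, which turns the recruited kinase on. In the kidney tubule the pathway is known for its part in cell size, nutrient uptake and tubular growth, and in podocytes for their upkeep.

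Of the 38 members, 32 had a promoter window in RefSeq (GRCm38.p6), which runs from 250 bases before to 50 bases after the gene start. The windows were searched on both strands for CACGTG, the E-box core read by TFEB, TFE3, MYC and other basic helix-loop-helix factors. It was in 4 of the 32 members (12.5%) and in 8.09% of all 27025 gene symbols with a window. The stretches of all 4 genes are shown. Of the 4, Lamtor1, Lamtor4 and Tbc1d7 had an unadjusted limma p under 0.05 below, as did 25.4% of all genes. The rest of the 8 members with such a p, Eif4ebp2, Akt1, Tsc1, Rps6kb1 and Ddit4, held no core in their windows. A link between the core and the values was not tested. They are written 5′ to 3′ on the strand of the gene, with the E-box core in capitals.
Lamtor1, chr7:101905742-101905801, plus strand: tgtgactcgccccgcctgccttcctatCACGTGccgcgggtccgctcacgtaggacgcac
Lamtor4, chr5:138255335-138255410, plus strand: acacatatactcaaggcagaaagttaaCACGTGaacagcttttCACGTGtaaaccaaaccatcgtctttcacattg
Tbc1d7, chr13:43171522-43171581, minus strand: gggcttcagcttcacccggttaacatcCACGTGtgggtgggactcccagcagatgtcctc
Rheb, chr5:24842425-24842484, minus strand: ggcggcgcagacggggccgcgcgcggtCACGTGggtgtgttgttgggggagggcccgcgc
The core begins 68 bases before the gene start in Lamtor1, 53 in Tbc1d7 and 96 in Rheb. The last bases of the window were found near the start of a GENCODE transcript for Lamtor4, Tbc1d7 and Rheb. For Lamtor1 they were not found, so its distance rests on the RefSeq start alone. Lamtor4 holds it at 120 and again at 104 bases before the start. The longer form TCACGTGA, which contains the core, was in 0 of the 32 members and in 1.12% of gene symbols. TGATGNAA, a form of the ATF4 half-site, was in Akt2 and Lamtor4 (6.25% of the 32) and in 4.51% of gene symbols. A match is a description of the sequence and not a bound site.

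Among the 38 members, Eif4ebp2 fell in Rragc S74N/+ kidneys and no other member passed the threshold. Eif4ebp2 encodes 4E-BP2, an inhibitor of cap-dependent translation that mTORC1 switches off by phosphorylation. The called share was 1 of 38 (2.63%), against 6.03% of all tested genes (limma, adjusted p under 0.05 over all tested genes). By direction, 0 of 38 members were called higher, against 3.45% of all genes, and 1 was called lower, against 2.58%. An unadjusted limma p under 0.05 was found for 8 members (21.1%), against 25.4% of all genes, a share of the members below that of all genes. The 5 values of each genotype did not overlap for 2 members (5.26%), Eif4ebp2 and Akt1, against 8.16% of all genes. Both were lower in Rragc S74N/+, a pattern held by 4.01% of all genes, and no member had all 5 Rragc S74N/+ values above the others, a pattern held by 4.15%.

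The log2 fold change, on the scale of log2(normalized count + 1), was negative for 25 members and positive for 13. Of all 13236 tested genes, 6785 were negative and 6451 positive. The median log2 fold change was -0.18 over the members and -0.01 over all tested genes. Summed over the members, normalized counts were 6269 to 6869 in Rragc +/+ and 5157 to 6000 in Rragc S74N/+ kidneys. These 2 ranges did not overlap, but as a share of all normalized counts of a kidney the members took 0.123% to 0.146% in Rragc +/+ and 0.1101% to 0.1317% in Rragc S74N/+, which overlap. With the values scaled to equal totals per kidney the median was -0.10 for the members and 0.06 for all genes. In whole tissue, fewer cells of a type and less RNA per cell cannot be told apart, here and in every result that follows.

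**Figure D1:**
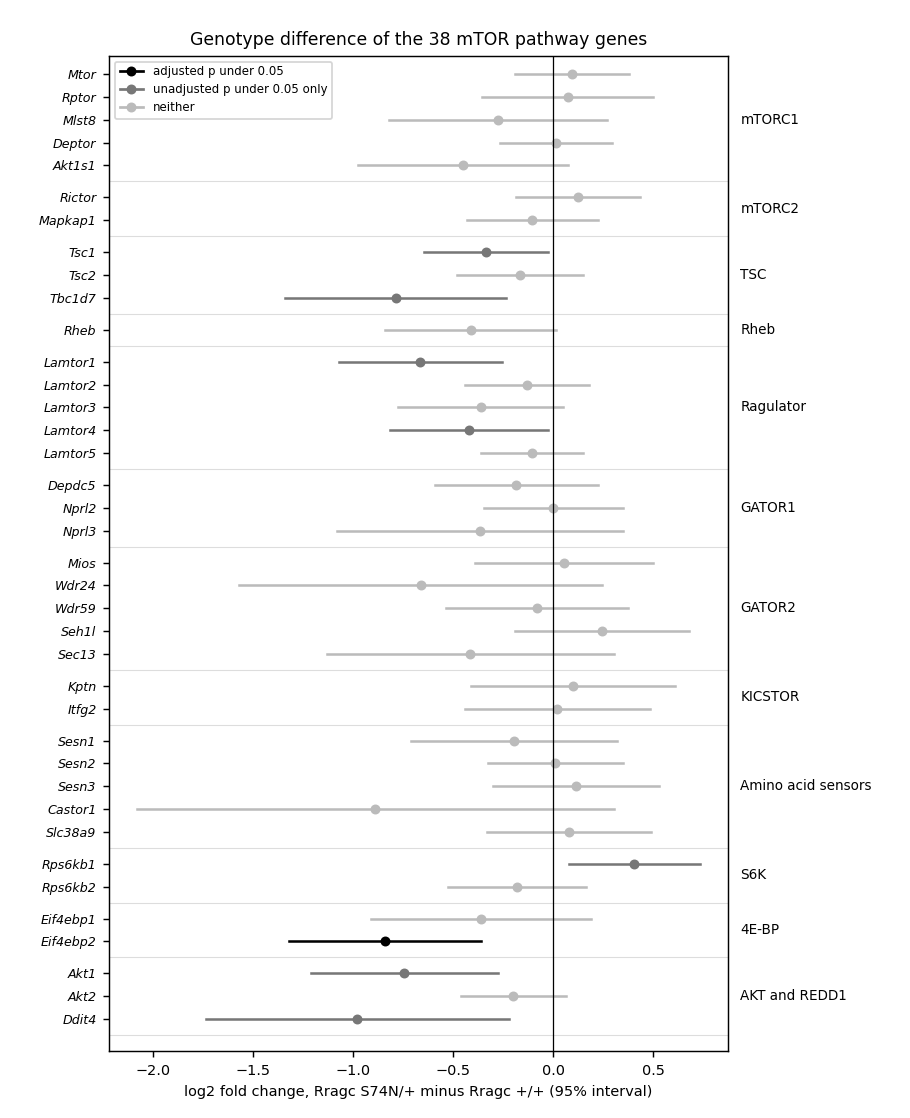
Log2 fold change of each of the 38 members (x axis, Rragc S74N/+ minus Rragc +/+, limma estimate as a point and 95% interval as a line), grouped by complex. Eif4ebp2 at -0.84 is the only member past the adjusted threshold, 7 further intervals exclude 0, and of these only that of Rps6kb1 lies to the right.

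The recovered reads numbered 4488493 to 5797251 in Rragc +/+ and 4615901 to 4930328 in Rragc S74N/+ libraries. Rragc S74N/+ replicate 1, whose depth lay inside the range of Rragc +/+, was the lowest of its group in 18 of 38 members, and the other 4 of its group in 2 to 8. This kidney also differed from the rest over all tested genes, and not only in the members. Pairs of samples were compared on their reads by chi-square per degree of freedom. It was 26.3 to 54.9 in the pairs with this kidney and 4.17 to 18.8 in all other pairs. Without that kidney, 3 members were called lower, Eif4ebp2, Akt1 and Lamtor1, and 0 higher. For comparison, leaving it out gave 424 lower calls and 476 higher calls among the whole set of 13236 genes. The proximal tubule markers were measured in all kidneys and summed to 33110 to 41379 normalized counts in Rragc +/+ and 31711 to 41353 in Rragc S74N/+, and 0 of the 8 were at 0 in any kidney. Of the 8, 1 was called lower, Slc5a2, the apical glucose transporter SGLT2, at 844.6 ± 48.2 and 415.3 ± 89.7 (SD, n = 5 each, adjusted p = 0.00048).

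Markers of some other cell types moved with the genotype. Those of the distal convoluted tubule summed to 4819 to 6043 normalized counts in Rragc +/+ and 1548 to 2330 in Rragc S74N/+ kidneys, and 5 of 5 were called lower. Its marker Pvalb was at 0 in Rragc S74N/+ replicate 5. The thick ascending limb list summed to 11172 to 15158 against 5131 to 11070, with 3 of 5 called lower. Slc12a1 of this list was not called, with means of 3130 in Rragc +/+ and 3318 in Rragc S74N/+. Leukocyte markers ran the other way, at 1436 to 1919 in Rragc +/+ and 2676 to 3533 in Rragc S74N/+, and 4 of the 12 in the table were called higher. Cd74 led this sum, with means of 909.5 and 1864. Cd68 had the only negative log2 fold change of the 12, at -0.34. Cd3e, which was not called, was at 0 in Rragc +/+ replicate 5. Fibroblast markers had 3 of 7 called higher. Of the principal cell markers 0 of 6 were called, and of the endothelial markers 0 of 6. Podocyte markers had 1 of 5 called higher, and intercalated cell markers had 1 of 6 called higher and 1 lower. The part of these shifts in the values of the members was not tested.

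**Figure D2:**
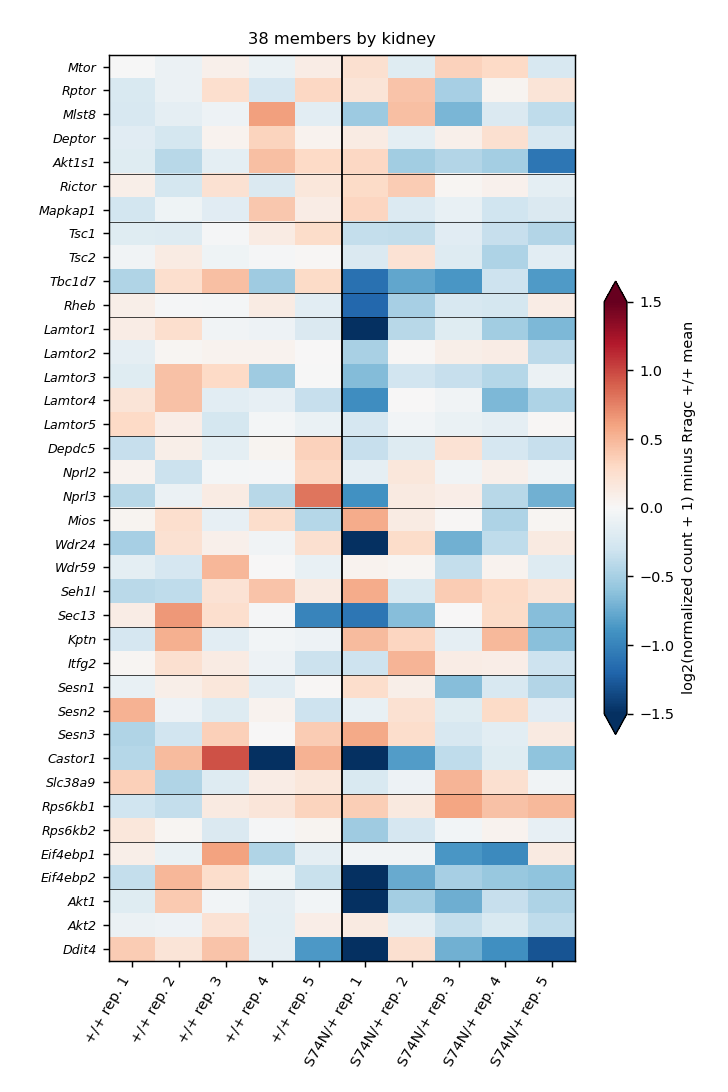
Each row is 1 member and each column 1 kidney. Colour gives log2(normalized count + 1) minus the Rragc +/+ mean of that gene, blue for lower and red for higher, with colours saturated beyond 1.5 either way. Black lines part the complexes and the genotypes. Rragc S74N/+ replicate 1 holds the darkest blue cells of Lamtor1, Wdr24, Eif4ebp2, Akt1 and Ddit4.

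No gene of the kinase complexes themselves passed the threshold. Mtor, the catalytic subunit shared by both complexes, had 323.3, 306.9, 343.7, 303.0 and 352.2 normalized counts in Rragc +/+ replicates 1 to 5. The Rragc S74N/+ kidneys had 383.3, 285.9, 412.9, 401.3 and 275.9. The Rragc S74N/+ values reached both above and below the Rragc +/+ range. The means were 325.8 ± 21.8 (SD, n = 5) and 351.9 ± 65.7 (SD, n = 5), with a log2 fold change of 0.09 ± 0.13 (SE), a 95% interval from -0.19 to 0.38 and a limma adjusted p of 0.71.

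Among the other mTORC1 subunits, Rptor, the scaffold that presents substrates, had a mean of 56.0 ± 10.7 in Rragc +/+ and 59.4 ± 13.1 in Rragc S74N/+ (SD, n = 5 each). Mlst8, the subunit that stabilises the kinase domain, had 35.4 ± 10.1 and 29.5 ± 10.5. Deptor, an inhibitor bound to both complexes, was read more deeply than the other subunits and had 784 ± 129 and 789.3 ± 107. For Akt1s1, which encodes the inhibitory subunit PRAS40, the means were 60.2 ± 15.5 and 44.9 ± 16.8, with a log2 fold change of -0.45 ± 0.25 (SE) and an adjusted p of 0.27. The 5 mTORC1 genes together summed to 1079 to 1462 normalized counts in Rragc +/+ and 1051 to 1448 in Rragc S74N/+ kidneys.

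mTORC2, which phosphorylates AKT, was represented by 2 further subunits. Rictor, its scaffold, had 177.9, 138.4, 194.9, 143.2 and 188.0 normalized counts in Rragc +/+ and 203.3, 218.1, 171.0, 174.2 and 150.6 in Rragc S74N/+ kidneys. The groups overlapped, and the log2 fold change was 0.12 ± 0.15 (SE, adjusted p = 0.64). Mapkap1, which encodes the subunit SIN1, had means of 238.6 ± 46.1 and 221.8 ± 41.8 (SD, n = 5 each).

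All 3 genes of the TSC complex, the brake that turns Rheb off, had lower means in Rragc S74N/+ kidneys, and none passed the threshold. Tsc1, its scaffold, had 88.4, 87.4, 98.9, 109.2 and 121.4 normalized counts in Rragc +/+ and 78.3, 77.5, 89.0, 78.4 and 73.8 in Rragc S74N/+ replicates. Only the highest Rragc S74N/+ kidney reached into the Rragc +/+ range. The log2 fold change of Tsc1 was -0.33 ± 0.15 (SE), with an adjusted p of 0.17 and an exact permutation p of 0.024.

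Tsc2, the GTPase-activating subunit, had 100.7, 114.4, 99.8, 103.0 and 105.5 normalized counts in Rragc +/+ and 89.5, 122.1, 90.98, 75.4 and 93.3 in Rragc S74N/+ kidneys. Rragc S74N/+ replicate 2 was the highest of all 10, and the log2 fold change was -0.17 ± 0.15 (SE, adjusted p = 0.51). Tbc1d7, the small additional subunit, had 25.7, 42.7, 49.0, 24.5 and 43.8 in Rragc +/+ and 15.9, 20.4, 18.996, 28.5 and 19.4 in Rragc S74N/+. Here too 1 kidney of Rragc S74N/+ lay inside the other range. Its log2 fold change was -0.79 ± 0.26 (SE, adjusted p = 0.080), on 17 to 51 reads per kidney, and DESeq2 called it (-0.85, adjusted p = 0.045).

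Rheb, the GTPase that turns mTORC1 on, had 104.0, 96.7, 96.0, 106.5 and 87.6 normalized counts in Rragc +/+ kidneys. The Rragc S74N/+ kidneys had 42.9, 68.8, 83.0, 81.5 and 105.9. In 4 of 5 the value lay below the lowest Rragc +/+ kidney, and in replicate 5 it lay near the top of that range. The log2 fold change was -0.41 ± 0.20 (SE, adjusted p = 0.21).

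The Ragulator genes encode the 5 subunits that hold the Rag GTPases on the lysosome. All 5 had negative log2 fold changes, from -0.66 to -0.10, and none passed the threshold. Over all 13236 tested genes 6785 were negative. Lamtor1, the lipid-anchored subunit that tethers the rest, had 992.3, 1094, 890.8, 871.5 and 790.0 normalized counts in Rragc +/+ and 322.7, 688.2, 810.8, 642.6 and 576.1 in Rragc S74N/+ kidneys. Rragc S74N/+ replicate 3 alone exceeded the lowest Rragc +/+ value, and replicate 1 lay far below its own group. The means were 927.8 ± 118 and 608.1 ± 181 (SD, n = 5 each), a log2 fold change of -0.66 ± 0.19 (SE) with an adjusted p of 0.052 and an exact permutation p of 0.016. Lamtor1 was called in 2 of the 10 fits that left out a kidney: leaving out Rragc S74N/+ replicate 1 gave -0.45 (adjusted p = 0.025) and leaving out replicate 3 gave -0.78 (adjusted p = 0.026).

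Lamtor4, one of the roadblock-fold subunits, had 547.1, 647.1, 429.1, 437.5 and 375.1 normalized counts in Rragc +/+ and 249.9, 479.8, 461.9, 299.4 and 346.8 in Rragc S74N/+ kidneys. The groups overlapped in the middle, with 2 Rragc S74N/+ kidneys above 3 of the Rragc +/+ kidneys. Its log2 fold change was -0.42 ± 0.19 (SE), with an adjusted p of 0.17 and an exact permutation p of 0.12. The remaining subunits had means of 155.6 ± 8.496 and 144.1 ± 27.2 for Lamtor2, 85.2 ± 22.3 and 64.8 ± 9.33 for Lamtor3 and 395.8 ± 58.2 and 365.8 ± 25.9 for Lamtor5 (SD, n = 5 each). Summed over the complex, counts were 1769 to 2431 in Rragc +/+ and 1064 to 1869 in Rragc S74N/+, and 2 kidneys of the second group lay inside the range of the first.

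**Figure D3:**
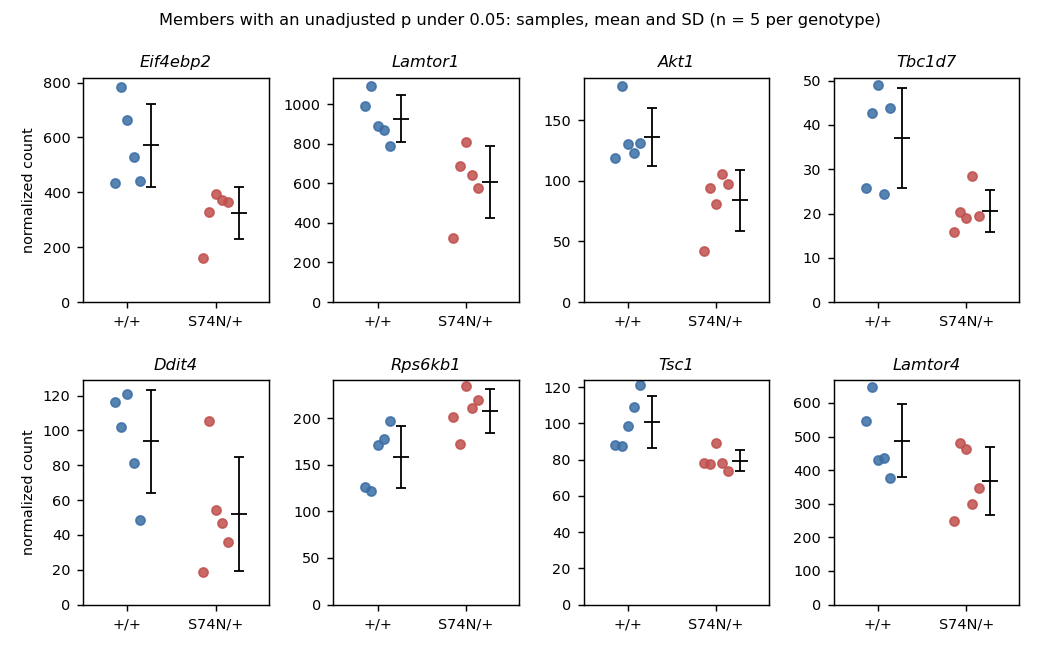
Normalized counts (y axis, from 0) of the 8 members with an unadjusted limma p under 0.05, 1 point per kidney in replicate order from left to right within each genotype, with mean and SD beside them (n = 5). The genotypes do not overlap for Eif4ebp2 and Akt1, and Rps6kb1 is the only gene of the 8 with the higher mean in Rragc S74N/+.

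GATOR1, which turns RagA off when amino acids are scarce, gave no call. Depdc5, its Rag-contacting subunit, had 39.2, 53.1, 45.1, 51.5 and 63.7 normalized counts in Rragc +/+ and 39.2, 43.6, 58.0, 41.8 and 38.9 in Rragc S74N/+ kidneys. The groups overlapped, and the log2 fold change was -0.18 ± 0.19 (SE, adjusted p = 0.59). Nprl2, which supplies the catalytic residue, had means of 66.2 ± 10.6 and 65.7 ± 5.62, with an interval of the log2 fold change from -0.34 to 0.35. Nprl3, its partner, was read only 9 to 30 times per kidney and had 17.6 ± 7.27 and 13.3 ± 4.64 (SD, n = 5 each).

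GATOR2, which restrains GATOR1, also gave none. Wdr24 had 23.5, 39.5, 35.5, 32.3 and 39.8 normalized counts in Rragc +/+ and 4.66, 40.7, 19.996, 25.5 and 36.9 in Rragc S74N/+ kidneys. The lowest of these rests on 5 reads and the highest of all 10 is also a Rragc S74N/+ kidney. The log2 fold change was -0.66 ± 0.43 (SE, adjusted p = 0.35), and leaving out Rragc S74N/+ replicate 1 gave -0.17. The log2 fold changes of the rest of the complex ran from -0.41 for Sec13, a protein also of COPII coats and nuclear pores, to 0.24 for Seh1l, also a nuclear pore protein, with Wdr59 at -0.08 and Mios at 0.05. The 5 genes summed to 210.9 ± 25.4 and 206.9 ± 7.27 normalized counts (SD, n = 5 each).

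KICSTOR, which brings GATOR1 to the lysosome, was measured by Kptn and Itfg2. Kptn had 36.9, 64.5, 39.4, 42.8 and 41.8 normalized counts in Rragc +/+ and 61.5, 55.2, 39.99, 62.1 and 28.2 in Rragc S74N/+ kidneys. Its values spread as widely within each genotype as between them, with a log2 fold change of 0.10 ± 0.24 (SE, adjusted p = 0.84). Itfg2 had means of 35.4 ± 5.23 and 36.4 ± 9.20 (SD, n = 5 each).

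The amino acid sensors did not pass the threshold in either direction. Sesn2, a stress-induced leucine sensor that binds GATOR2, had 437.4, 289.2, 265.9, 314.4 and 244.8 normalized counts in Rragc +/+ and 281.6, 355.7, 266.9, 371.7 and 270.1 in Rragc S74N/+ kidneys. The genotypes overlapped throughout, and the log2 fold change was 0.01 with a 95% interval from -0.33 to 0.35 (adjusted p = 0.98). Its relative Sesn1 had means of 25.6 ± 2.51 and 22.8 ± 6.11, and Sesn3 126.4 ± 32.4 and 136.2 ± 32.1 (SD, n = 5 each). Slc38a9, the lysosomal arginine sensor and transporter, had 72.7 ± 15.6 and 76.8 ± 16.6. Castor1, the cytosolic arginine sensor, was near the limit of detection at 1 to 20 reads per kidney, with a log2 fold change of -0.89 and a 95% interval from -2.08 to 0.30.

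Among the direct substrates of mTORC1, Rps6kb1 and Eif4ebp2 had differences of opposite sign. Rps6kb1, which encodes the S6 kinase S6K1, had 126.4, 121.7, 170.9, 177.3 and 197.0 normalized counts in Rragc +/+ and 201.4, 172.5, 234.9, 210.8 and 219.6 in Rragc S74N/+ kidneys. In 4 of 5 Rragc S74N/+ kidneys the value lay above every Rragc +/+ kidney. The means were 158.7 ± 33.1 and 207.9 ± 23.3 (SD, n = 5 each), the log2 fold change 0.41 ± 0.15 (SE), the adjusted p 0.12 and the exact permutation p 0.032. It was not called under any alternative, where the adjusted p ran from 0.068 to 0.28. Rps6kb2, which encodes S6K2, had means of 76.6 ± 7.54 and 67.9 ± 10.4.

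Eif4ebp2 had 432.9, 785.4, 665.2, 530.1 and 439.8 normalized counts in Rragc +/+ kidneys. The Rragc S74N/+ kidneys had 161.3, 328.6, 393.9, 372.8 and 366.3, all below the lowest Rragc +/+ kidney. The mean fell from 570.7 ± 152 to 324.6 ± 94.3 (SD, n = 5 each), a log2 fold change of -0.84 ± 0.23 (SE) with a limma adjusted p of 0.039 and an exact permutation p of 0.0079, the smallest that 5 against 5 allows. Rragc S74N/+ replicate 1 stood apart from its group, and without it the log2 fold change was -0.61 (adjusted p = 0.019).

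The call of Eif4ebp2 was marginal. It was lost with equal totals per kidney (adjusted p = 0.054), without the variance trend (0.11) and with robust variances (0.069). It was also lost in 7 of 10 fits that left out a kidney, namely without Rragc +/+ replicate 1, 2, 3 or 4 or Rragc S74N/+ replicate 2, 4 or 5, where the adjusted p ran from 0.052 to 0.12, while the log2 fold change stayed between -0.93 and -0.61 in all 10 fits. In a GRCm38 annotation the span of a predicted gene model, Gm48086, overlaps that of Eif4ebp2 on the same strand. Only whole spans were compared, so it is not known whether any exon is shared, where reads could not be told apart. Spans of other members, among them Mtor, Akt1 and Sesn2, also overlap a gene model on their strand.

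Eif4ebp1, which encodes 4E-BP1, the better known of the family, had 53.7, 46.8, 76.8, 36.7 and 45.8 normalized counts in Rragc +/+ and 48.5, 48.5, 26.99, 25.5 and 55.4 in Rragc S74N/+ kidneys. The genotypes overlapped, and the log2 fold change was -0.36 ± 0.26 (SE, adjusted p = 0.40). Counts of 3′ end reads do not scale with transcript length, and on that scale Eif4ebp2 had the higher level of the pair in every kidney. The 2 genes summed to 486 to 832 normalized counts in Rragc +/+ and 210 to 422 in Rragc S74N/+.

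The growth factor and stress inputs among the members had negative log2 fold changes. Akt1, the kinase that inhibits the TSC complex and PRAS40, had 118.6, 177.9, 130.6, 123.1 and 131.3 normalized counts in Rragc +/+ and 42.0, 94.0, 81.0, 105.9 and 97.2 in Rragc S74N/+ kidneys. Every Rragc S74N/+ kidney was below every Rragc +/+ kidney. The log2 fold change was -0.74 ± 0.22 (SE), the adjusted p 0.057 and the exact permutation p 0.0079. It was called with robust variances (adjusted p = 0.046), by DESeq2 (0.025) and without Rragc S74N/+ replicate 1, where the log2 fold change was -0.51 (0.0496). Akt2, the isoform of insulin-responsive tissues, had means of 442.5 ± 47.9 and 387.1 ± 58.6 (SD, n = 5 each) and a log2 fold change of -0.20 ± 0.12 (SE, adjusted p = 0.33).

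Ddit4, which encodes REDD1, an inhibitor of mTORC1 induced by hypoxia, energy stress and glucocorticoids, had 116.3, 102.0, 121.0, 81.2 and 48.8 normalized counts in Rragc +/+ kidneys. The Rragc S74N/+ kidneys had 18.7, 105.7, 53.99, 46.8 and 35.9. The genotypes overlapped, since replicates 2 and 3 of Rragc S74N/+ lay above the lowest Rragc +/+ kidney. The log2 fold change was -0.98 ± 0.36 (SE, adjusted p = 0.11), and leaving out Rragc S74N/+ replicate 2 gave -1.28 (adjusted p = 0.033).

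**Figure D4:**
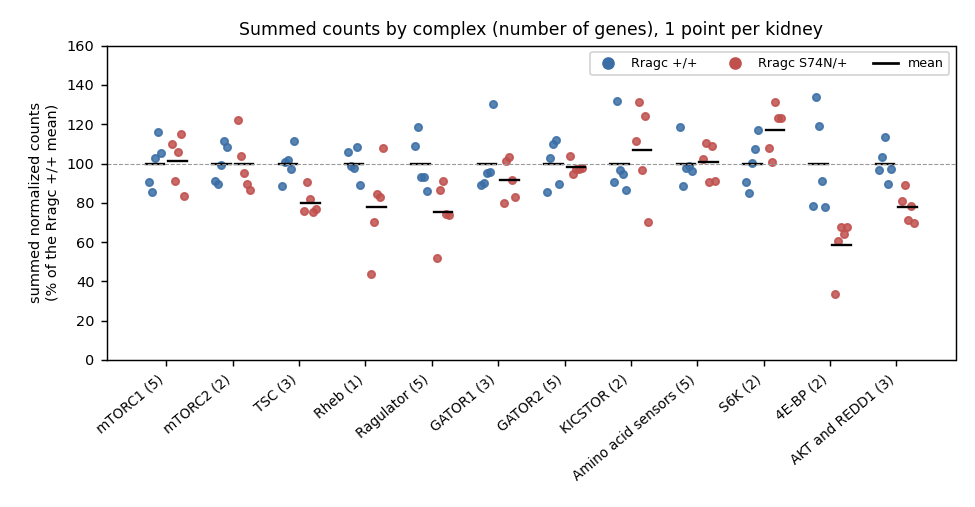
Summed normalized counts of each complex in each kidney (points) as a percentage of the Rragc +/+ mean of that complex (y axis, from 0), with the number of genes in parentheses and the genotype mean as a bar. The 4E-BP pair and the AKT and REDD1 group are the 2 whose genotypes do not overlap, and no test was run on these sums.

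By complex, the summed counts in Rragc S74N/+ relative to Rragc +/+ kidneys were 1.01 for mTORC1, 0.995 for mTORC2, 0.98 for GATOR2 and 1.01 for the amino acid sensors. They were 0.92 for GATOR1 and 1.07 for KICSTOR. The ratio was 0.80 for the TSC complex, 0.78 for Rheb, 0.76 for Ragulator, 0.59 for the 4E-BPs, 0.78 for AKT and REDD1 and 1.17 for the S6 kinases. A sum is led by its most deeply read gene, Lamtor1 in Ragulator, Eif4ebp2 in the 4E-BPs and Akt2 in the AKT group. Deptor led mTORC1 and Sesn2 the amino acid sensors, so a ratio near 1 does not mean that every gene was level. Ratios of single means ran from 0.75 for Akt1s1 to 1.08 for Mtor in mTORC1. In the sensors they ran from 0.48 for Castor1 to 1.08 for Sesn3.

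Spread between kidneys of one genotype differed widely among the members. In Rragc +/+ the SD was 5.46% of the mean for Lamtor2 and 58.3% for Castor1, and in Rragc S74N/+ it was 7.09% for Lamtor5 and 62.6% for Ddit4. The number in the sample titles, whose meaning the labels do not give, lay under 200 for 3 kidneys of each genotype and over 200 for 2. Within these ranges the difference in mean log2 value was -1.14 and -0.38 for Eif4ebp2, -1.02 and -0.32 for Akt1, -0.81 and -0.45 for Lamtor1, and 0.54 and 0.20 for Rps6kb1. Other members changed sign between the ranges, among them Akt1s1 (0.03 and -1.17), Mapkap1 (0.17 and -0.51) and Sec13 (-0.91 and 0.33). The range under 200, given first, holds Rragc S74N/+ replicate 1, the kidney that differed from the rest over all tested genes.

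The rest of the pathway was read from 69 further genes, of which 63 were tested and 0 passed the threshold by limma. An unadjusted p under 0.05 was found for 15 of the 63 (23.8%, against 25.4% of all genes). On the recovered reads of 10 samples edgeR called 1 of the 63, and 834 of all 13236 tested genes. DESeq2 called 7 of the 63, and 1354 of all tested genes. The median log2 fold change was -0.07. Rragc, the knocked-in gene, had means of 146.5 ± 42.7 and 123.7 ± 26.4 (SD, n = 5 each), a log2 fold change of -0.22 ± 0.20 (SE, adjusted p = 0.51), and reads from the 3′ end carry no mark of the allele. All 6 tested genes of the Rag and folliculin list had negative log2 fold changes, with a median of -0.37. Over all tested genes the sign was negative in 6785 of 13236, and none of the 6 was called by limma.

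Of 10 tested genes of sensing and complex assembly 5 were negative, and the list's median was 0.03. The 9 genes of LKB1 and AMPK, which signal low energy, had a median of -0.06. For the 17 substrates and effectors it was -0.10 and for 6 glucocorticoid-induced genes -0.56. Of these 6, 4 were negative. They were Tsc22d3 at -0.93 ± 0.28 (SE, limma adjusted p = 0.058), Dusp1 at -0.88 ± 0.26 (0.055), Per1 at -0.63 and Klf9 at -0.50. Fkbp5 was at 0.31 and Zbtb16 at 1.28 ± 0.40 (SE, limma adjusted p = 0.068). Of this list DESeq2 called Tsc22d3, Dusp1 and Zbtb16, as did edgeR on 8 samples, while edgeR on 10 samples called Zbtb16 alone. The 5 tested genes of the ATF4 list, 4 targets and Atf4 itself, which encodes a translation-controlled factor induced by amino acid lack and by mTORC1, were all positive, with a median of 0.13. Groups without overlap were found for 3 of these genes (4.76%, against 8.16% of all genes), named here after their values were seen: Prr5, an mTORC2 subunit (58.4 ± 13.3 and 32.0 ± 12.04), Maf1, a repressor of RNA polymerase III held back by mTORC1 (196.6 ± 24.1 and 149.04 ± 14.8), and Gsk3b, a kinase inhibited by AKT (1202 ± 35.4 and 1101 ± 34.6; SD, n = 5 each). All 3 were lower in Rragc S74N/+ and none was called.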

How the data were processed

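RNA of 10 whole kidneys was sequenced from the 3′ end with a stranded oligo-dT kit. The authors checked reads with FastQC 0.11.7, aligned them to GRCm39 with TopHat2 2.0.10, Bowtie 1.0.0 and SAMtools 0.1.19, and obtained stranded gene counts with HTSeq 0.6.1 and GENCODE gene models. The deposited signal values are normalized counts, that is, counts scaled by 1 size factor per sample. The table lacks genes with few reads, by a rule not stated. Replicates were numbered within each genotype by order of deposit. The study's methods count each sample of a group as 1 animal.

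Genes with at least 5 normalized counts in at least 5 samples were tested (13236 of 13299). Log2(normalized count + 1) was modelled on genotype alone with limma 3.58.1 (R 4.3.3) and an eBayes variance trend, and p-values, two-sided, were adjusted by Benjamini-Hochberg over all tested genes at a threshold of 0.05. This scale understates changes of genes with low values. Exact two-sided permutation tests of single genes ran over the 252 allocations of samples. All values of the 10 columns came out as whole reads within 0.1 when divided by the step of their column, and 8 columns passed the stricter check that was applied. edgeR 4.0.16 (quasi-likelihood) was run on the reads of 10 and of 8 samples, and DESeq2 1.42.0 on those of 10. No pair of samples agreed within sampling noise (chi-square per degree of freedom at least 4.17). Scripts were tested on simulated data. The other alternatives were pseudocounts of 0.5 and 5, no filter or a minimum mean of 50, equal totals or 75th percentiles, other variance models, a block for the title number, and each sample left out.

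The members and lists were chosen with earlier results of these data known. Every member is named with its values. Values in every kidney are given for members past the threshold, with groups that did not overlap or with an unadjusted p under 0.05, and for 12 fixed members. Of the 69 further pathway genes and the marker lists, those under other symbols or not in the table were not analysed here. The list of growth factor input is not reported here. Promoter windows are RefSeq's on GRCm38.p6 and were not mapped to GRCm39. Deptor, Eif4ebp1, Lamtor3, Rps6kb2, Seh1l and Wdr24 had none.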

Additional observations from a re-analysis of the deposited data

Results flagged for a closer look

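In 76 groups of 5 values, 1 for each member and genotype, a single kidney stood far from the other 4 in 8. The rule took the gap to the nearest value relative to the range of the 5 normalized counts. For independent, normally distributed values it marks about 1 in 20 groups, or 3.8. The members share the same kidneys, so the groups are not independent, and no conclusion was drawn from 8 against 3.8. For Eif4ebp2, Rragc S74N/+ replicate 1 had 161.3 normalized counts, against 328.6 to 393.9 in the other 4 kidneys of its genotype. For Akt1, Rragc +/+ replicate 2 was the high one at 177.9, against 118.6 to 131.3. Mlst8 was high in Rragc +/+ replicate 4 at 53.3, against 29.1 to 32.6. Mapkap1 was high in Rragc S74N/+ replicate 1 at 294.7, against 191.5 to 216.9. Lamtor2 was low in Rragc +/+ replicate 1 at 141.0, against 156.2 to 161.6. Depdc5 was high in Rragc S74N/+ replicate 3 at 58.0, against 38.9 to 43.6. Wdr59 was high in Rragc +/+ replicate 3 at 46.1, against 27.05 to 32.3. Kptn was high in Rragc +/+ replicate 2 at 64.5, against 36.9 to 42.8.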

How the results depend on the processing

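The number of members called, 1 with the main settings and lower, was 2 with a pseudocount of 5 (Eif4ebp2 and Lamtor1) and with edgeR on 8 samples, 4 with DESeq2 (Akt1, Eif4ebp2, Lamtor1 and Tbc1d7), and 0 with equal totals per sample or without the variance trend. It was 0 to 3 when a kidney was left out: 0 without Rragc +/+ replicate 1, 2, 3 or 4 or Rragc S74N/+ replicate 4 or 5, 2 without Rragc S74N/+ replicate 3 and 3 without Rragc S74N/+ replicate 1. No alternative called a member higher. The further pathway genes called, 0 with the main settings, were 1 with the title number as a block, 1 with edgeR on 10 samples, 7 with DESeq2, 4 with edgeR on 8 samples, and 0 to 3 when a kidney was left out (2 without Rragc +/+ replicate 5 and 3 without Rragc S74N/+ replicate 3). All genes called, 798 of 13236 with the main settings, became 391 without the variance trend and 1354 with DESeq2. They were 862 with a pseudocount of 5, 860 with the title number as a block, 834 with edgeR on 10 samples and 851 on 8. When a kidney was left out they were 311 to 902. Without Rragc +/+ replicate 2 they were 311, without 1 368 and without 4 383. Without Rragc S74N/+ replicate 5 they were 371, without 1 900 and without 3 902. With equal totals 943 were called and 76.1% of them were higher, against 57.3% with the main settings. Of 824 values of single members under the alternatives, 774 kept direction and side of the threshold and 30 changed sign, all in 9 members whose log2 fold change lay near 0. Nprl2 was -0.00034 with edgeR on 10 samples and -0.0093 with DESeq2, Itfg2 -0.037 with edgeR on 8 samples, and Sesn2 -0.0038 with DESeq2 and -0.021 with edgeR on 8 samples. When a kidney was left out the range was -0.016 to 0.21 for Rptor, -0.052 to 0.098 for Deptor, -0.080 to 0.080 for Nprl2, -0.073 to 0.18 for Mios, -0.14 to 0.044 for Wdr59, -0.10 to 0.11 for Itfg2, -0.067 to 0.14 for Sesn2, -0.00057 to 0.21 for Sesn3 and -0.032 to 0.17 for Slc38a9. The cause of these changes was not tested. No paired analysis was run, since each sample counts as 1 animal and the labels name no pairing of animals across the genotypes. With 5 kidneys per genotype and 1 to 30 reads for Castor1 and Nprl3, differences in the least read members were not detectable at this depth unless large.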
